A study of Mus musculus with 36 samples.

Results

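The striatal transcriptome of saline-injected 129P3/J mice was compared with that of saline-injected SWR/J mice. A group consisted of 3 microarrays, and each array carried the pooled striatal RNA of 3 mice, so that 9 mice of either strain were profiled. All were adult males of 8 to 10 weeks that had been injected subcutaneously with saline, without morphine, over 5 days on the schedule of the morphine groups and were killed 4 hours after the final one. The dissected block held the rostral caudate and putamen together with the nucleus accumbens. These 6 arrays belong to a set of 36, in which 129P3/J, SWR/J, C57BL/6J and DBA/2J mice received saline, 1 dose of morphine (acute, 20 mg/kg) or increasing doses over 5 days (chronic, last dose 40 mg/kg). The question addressed here is how far the 2 genetic backgrounds differ before any opioid is given. A probe set, the group of short oligonucleotides that reads 1 stretch of a transcript, entered the comparison when it was not an Affymetrix control and its intensity exceeded a signal threshold of 99.7 on at least 3 of the 6 arrays. This held for 25751 of 45037 probe sets, or 57.2%. Of these, 21695 carried exactly 1 gene symbol, for 12741 genes in all, 563 carried several symbols and 3493 had no symbol here.

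Most neurons of the striatum are medium spiny neurons, GABAergic cells that receive dopamine from the midbrain and express opioid peptides and opioid receptors. An inbred strain is homozygous nearly throughout its genome, so any pair of strains differs by many fixed alleles, some of which change how much of a transcript is made, how it is spliced or where it ends. A probe set reads a short stretch of sequence, usually near the end of the transcript, and a base difference within that stretch can also change its signal. The probe sequences were not used here, so that a difference in transcript amount cannot be told apart from a base difference in the probed stretch or from another transcript end. Likewise, in whole tissue fewer cells of a type cannot be told apart from less RNA per cell.

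The 6 arrays were alike in scale, with median intensities of 122 to 129 and 3.74% to 3.96% of values at the lowest value of the table. The log2 values correlated at 0.976 to 0.98 between pools of 129P3/J, at 0.959 to 0.974 between pools of SWR/J and at 0.952 to 0.967 across the strains. The poly-A control transcripts added to the RNA were low on 129P3/J replicate 3 (-3.53 on a centred log2 scale, against 0.182 to 0.287 on the other 5), and these are not mouse transcripts. The 3′ probe set of the Actb control exceeded the 5′ one by 0.454 to 0.671 in 129P3/J and by 0.247 to 0.415 in SWR/J, whereas the same measure for Gapdh lay between -0.0863 and 0.0466 on all 6 arrays. The part of this Actb difference in the results was not tested. Transcripts that define the tissue were abundant in both strains: the mean log2 level of 10 tested medium spiny neuron markers, Penk and Drd2 among them, was 11.03 to 11.06 in 129P3/J and 10.87 to 11.10 in SWR/J.

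The level of 749 probe sets differed between the strains (limma, Benjamini-Hochberg adjusted p under 0.05), which is 2.91% of those tested. The spread came from all 36 arrays, and a fit of the 6 saline arrays alone called 463, of which 435 were among the 749. Of the 749, 336 (1.3% of those tested) were higher and 413 (1.6%) were lower in 129P3/J. At an unadjusted p under 0.05 the number was 2136. The values of the 3 arrays of one strain lay entirely above those of the other for 746 of the 749, against 12.4% of all probe sets tested. The calls were made on these same arrays, so this is not separate support for them. Most differences were moderate. The median size among those called was 0.781 on the log2 scale and the smallest was 0.264, while the interquartile range over all tested probe sets ran from -0.0867 to 0.0987. Taking the signals as measured, low ones included, more than a 2-fold difference was found for 113 higher and 140 lower probe sets, more than 4-fold for 26 and 35, and more than 8-fold for 10 and 11. The called probe sets with 1 symbol covered 489 genes, 3.84% of the genes tested. When each gene was represented by its brightest probe set alone, 296 genes (2.32%) were called, 140 higher (1.1% of genes) and 156 lower (1.22%), so that 193 genes were called only through a dimmer probe set. The balance of directions rested partly on SWR/J replicate 1: without this array 383 probe sets were higher and 313 lower, and without any other single saline array more were lower than higher.

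**Figure D1:**
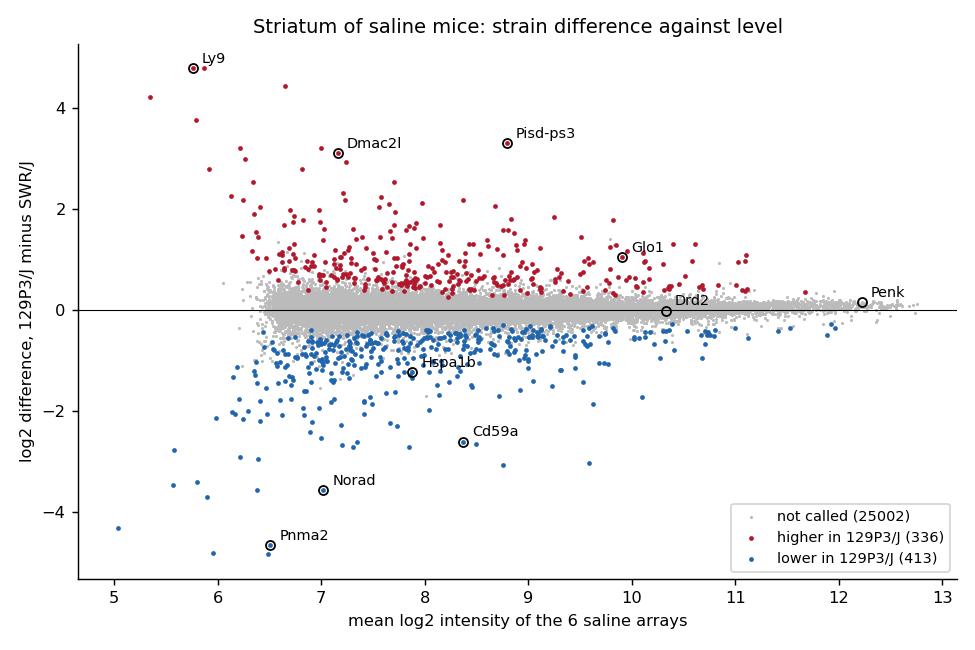
Each point is 1 of 25751 probe sets. The x axis gives the mean log2 intensity of the 6 saline arrays and the y axis the log2 difference, 129P3/J minus SWR/J. Red and blue points are the 336 probe sets called higher and the 413 called lower in 129P3/J, and circles mark the named genes, each by its probe set of largest difference. Penk and Drd2 lie near the zero line, while the largest differences lie at low and middle levels.

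Many of the largest differences separated a clear signal in one strain from a signal under the threshold in the other. For 47 of the 61 probe sets beyond 4-fold, all 3 arrays of the lower strain were at or under the signal threshold. Such a low level is only a bound, and the fold change is then given as a minimum, with low values set to the threshold. Log2 differences of such probe sets in the plots, in the range given for a gene and in the comparison with morphine are as measured. Over all 749 called probe sets this applied to 142, and the low strain was 129P3/J in 88 of them and SWR/J in 54.

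Ly9, a cell-surface receptor of lymphocytes, stood at log2 levels of 8.34, 8.00 and 8.12 in 129P3/J and 2.74, 3.51 and 3.84 in SWR/J. The level was at least 2.85-fold higher in 129P3/J (adjusted p = 5.35e-11), since no pool of SWR/J reached the threshold. The saline means of C57BL/6J and DBA/2J were under the threshold too. The other 5 tested lymphocyte markers were not called, and their mean level overlapped between the strains (7.92 to 8.13 in 129P3/J and 7.82 to 8.06 in SWR/J). Pisd-ps3, a pseudogene copy of the mitochondrial phosphatidylserine decarboxylase gene, read 10.25, 10.62 and 10.45 in 129P3/J against 7.37, 7.01 and 7.01 in SWR/J. Both strains were above the threshold, and the log2 difference was 3.31 (SE 0.13, adjusted p = 9.55e-17). Dmac2l, a mitochondrial protein linked to ATP synthase, was 8.75, 8.69 and 8.71 against 5.29, 5.61 and 5.92, at least 4.21-fold higher in 129P3/J. Sox2ot, the noncoding transcript that spans the neural stem cell gene Sox2, was 8.80, 8.72 and 8.62 against 5.79, 5.99 and 5.54, again at least 4.21-fold higher. In both genes the 129P3/J pools agreed closely, and no pool of SWR/J reached the threshold. Cdhr1, a cadherin known from photoreceptors, was 8.19, 8.75 and 8.01 against 5.95, 6.62 and 5.87, at least 3.20-fold higher. It was the single called gene of 8 tested photoreceptor genes.

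In the other direction, Cd59a, which blocks the last step of complement attack on the cell's own membrane, read 7.04, 6.96 and 7.20 in 129P3/J and 9.87, 9.46 and 9.69 in SWR/J. The difference of -2.61 (SE 0.13, adjusted p = 2.27e-14) was measured above the threshold in both strains. By its other probe set Cd59a was at least 3.49-fold lower. Zfp949, a zinc finger gene, was 6.49, 6.37 and 6.63 against 9.54, 8.71 and 9.36, at least 5.91-fold lower in 129P3/J, and its other probe set differed by -0.67 (SE 0.11). Thus both probe sets of either gene were lower in 129P3/J. Tmem267, a gene for a transmembrane protein, was 6.02, 6.01 and 5.82 against 8.95, 8.51 and 8.55, at least 4.08-fold lower. Snhg14, the long noncoding host of small nucleolar RNAs that runs antisense to Ube3a, was 7.22, 7.30 and 7.14 against 10.58, 10.09 and 10.24, a difference of -3.08 (SE 0.20, adjusted p = 3.37e-12) at 1 of its 2 probe sets. Its saline means in C57BL/6J and DBA/2J, 10.20 and 7.28, split between the levels of the 2 strains.

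**Figure D2:**
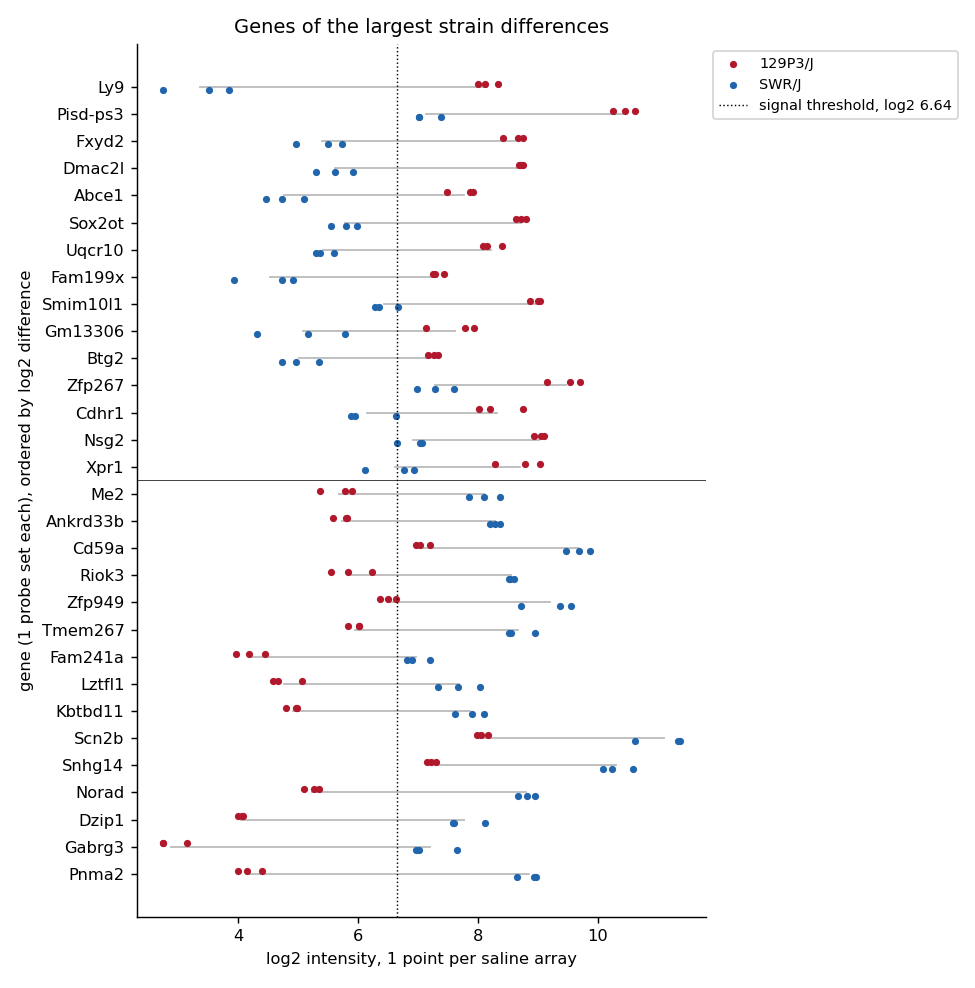
The 15 genes with the largest positive and the 15 with the largest negative differences as measured, 1 called probe set each. The x axis is the log2 intensity, with 1 point for each saline array (129P3/J red, SWR/J blue), the grey line joins the group means and the dotted line marks the signal threshold. The values of the 2 strains overlap in none of the 30, and in many genes the lower strain lies wholly under the threshold.

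A gene often has several probe sets on the array, which can read different stretches or different ends of its transcripts. It can thus be seen whether a strain difference was shared by the probe sets of a gene. Whether their stretches overlap was not checked. Of 5471 genes with several kept probe sets, 326 had at least 1 called. In 294 of them at least 1 other probe set was not called, in 22 every probe set was called in the same direction, and in 18 probe sets were called in opposite directions. (A gene can be among both the 294 and the 18.) Genes of the first kind with a large difference at 1 probe set are described next.

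Abce1, which recycles ribosomes after translation, was at 7.87, 7.49 and 7.92 in 129P3/J and 5.09, 4.72 and 4.45 in SWR/J by 1 probe set, at least 2.17-fold higher. The other 2 differed by 0.04 (SE 0.10) and -0.04 (SE 0.13). Uqcr10, a subunit of respiratory complex III, was at least 2.97-fold higher at 1 probe set, while its 2 brighter ones differed by 0.01 and -0.003, each with an SE of 0.10. In both genes the brighter probe sets were not called. Btg2, an antiproliferative immediate early gene, followed the same pattern, with 7.33, 7.26 and 7.17 against 5.34, 4.72 and 4.95 at the dimmer probe set, at least 1.53-fold higher, and a difference of -0.09 (SE 0.14) at the brighter. For Gabrg3, the gamma-3 subunit of the GABA-A receptor, 1 probe set was at 2.74, 3.14 and 2.74 in 129P3/J and 7.64, 6.96 and 7.01 in SWR/J, at least 1.48-fold lower, and the other 2 were not called (0.07, SE 0.26, and 0.38, SE 0.21). For Norad, an abundant noncoding RNA that binds Pumilio proteins, 1 probe set was at least 4.48-fold lower in 129P3/J, whereas the brightest stood at 12.2 to 12.4 in 129P3/J and 12.1 to 12.3 in SWR/J. In each of these genes a difference was detected at 1 probe set and not at the others described. Xpr1, the phosphate exporter, lay between these extremes: all 7 of its probe sets were higher in 129P3/J, by 0.26 to 2.09, and 4 were called.

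The genes with every probe set called in the same direction, 10 higher and 12 lower in 129P3/J, were picked out after their values were seen. They give the differences that were called at more than 1 probe set, though these may read overlapping stretches. Glo1, the glyoxalase that detoxifies methylglyoxal, was higher at all 4 probe sets, by 0.82 to 1.04. Its called probe set of largest size read 10.31, 10.60 and 10.39 in 129P3/J and 9.45, 9.43 and 9.29 in SWR/J (difference 1.04, SE 0.12, adjusted p = 6.91e-07). The levels of C57BL/6J (9.53) and DBA/2J (10.35) lay with SWR/J and with 129P3/J, respectively. Fgf1, an acidic fibroblast growth factor, was higher at both probe sets (9.55, 9.52 and 9.48 against 7.85, 8.55 and 8.32 at the brighter, a difference of 1.28, SE 0.13). Nt5dc3, a gene of the 5′-nucleotidase domain family, was higher by 1.39 (SE 0.11) and 0.80 (SE 0.10). Snx6 of the retromer was higher by 0.62 to 0.76 over 3 probe sets. Vps33a of the HOPS tethering complex was higher by 0.53 and 0.46. Fto, an RNA demethylase, was higher by 0.30 (SE 0.08) at its bright probe set and at least 1.45-fold at its dim one. Among the lower genes, Dctn5, a dynactin subunit, fell by 0.90 and 0.88 on the log2 scale, with 8.93, 9.15 and 8.93 in 129P3/J and 9.85, 10.03 and 9.84 in SWR/J at the brighter. C57BL/6J (9.83) and DBA/2J (9.89) had the level of SWR/J. Agpat1, an acyltransferase of phospholipid synthesis, differed by -1.01 (SE 0.19) and -0.72 (SE 0.19, limma adjusted p = 0.0335). Psat1 of the serine synthesis pathway differed by -0.44 (SE 0.12) and -0.41 (SE 0.08), and Inpp4a, a phosphoinositide phosphatase, by -0.92 (SE 0.17) and -0.58 (SE 0.15). The first value of Psat1 was no longer called without 129P3/J replicate 1 or 3 or SWR/J replicate 1 or 2 (adjusted p = 0.0753 to 0.325), and the dim probe set of Fto without 129P3/J replicate 2 or SWR/J replicate 1 (adjusted p = 0.0595 and 0.0543).

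Opposite calls within a gene were the rarest kind. Pnma2, a gene of the paraneoplastic Ma antigen family that neurons express, was 9.56, 9.64 and 9.59 in 129P3/J against 8.21, 7.93 and 7.87 in SWR/J at its bright probe set, higher by 1.59 (SE 0.13). At the other probe set it was 4.15, 4.40 and 3.99 against 8.97, 8.65 and 8.94, at least 4.63-fold lower. The 2 probe sets thus ordered the strains oppositely, without overlap in either. Scn2b, the beta-2 subunit of voltage-gated sodium channels, was 8.05, 7.99 and 8.16 against 11.34, 10.62 and 11.36 at one probe set (-3.04, SE 0.30) but 11.27, 11.28 and 11.23 against 10.80, 10.81 and 10.68 at another (0.50, SE 0.12). Lztfl1, a regulator of ciliary traffic, was at least 2.05-fold lower at one probe set and higher by 0.40 (SE 0.08) at another. Riok3, an atypical protein kinase, was at least 3.74-fold lower and higher by 0.50 (SE 0.14). Stx3, a syntaxin of membrane fusion, was higher by 1.68 (SE 0.14) and lower by 0.53 (difference -0.53, SE 0.13), and Vps52, a subunit of the GARP tethering complex, was at least 2.10-fold higher at one and differed by -0.54 (SE 0.13) at another.

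**Figure D3:**
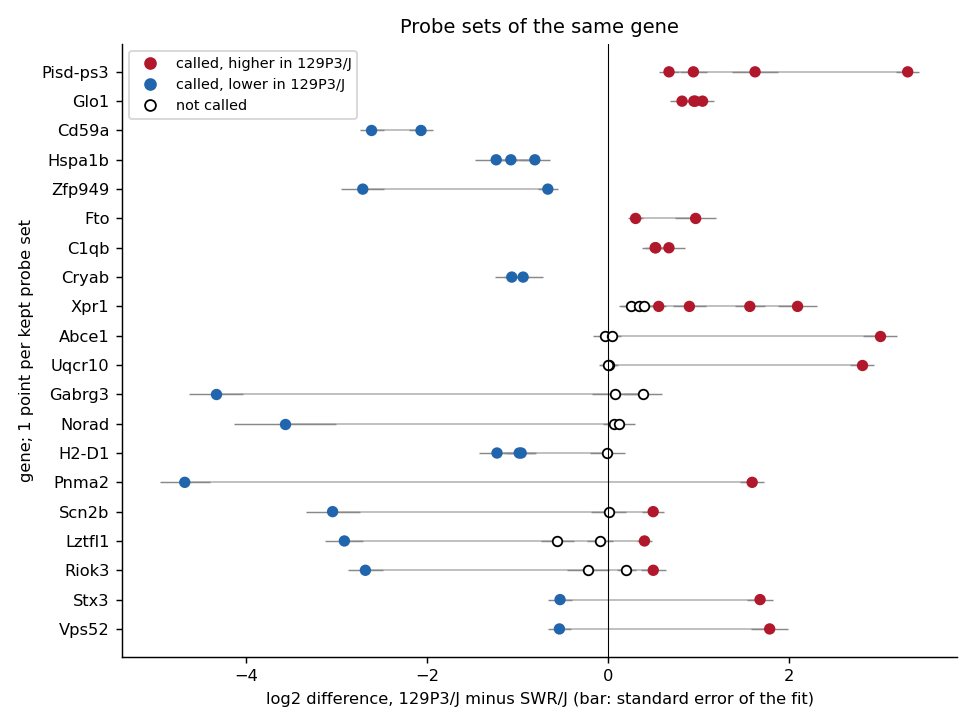
All kept probe sets of 20 genes named in the text. The x axis is the log2 difference, 129P3/J minus SWR/J, with the standard error of the fit as a bar; filled points were called (red higher, blue lower in 129P3/J) and open points were not. Points of Glo1, Cd59a, Hspa1b and C1qb lie together on 1 side of zero, those of Abce1, Uqcr10, Gabrg3 and Norad include 1 far point and others near zero, and those of Pnma2, Scn2b, Lztfl1, Riok3, Stx3 and Vps52 lie on both sides.

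Genes were also followed in 20 lists of pathways and receptor families, each gene represented by its brightest probe set. By this probe set no member was called in 12 lists, and in the other 8 there were 1 to 3 called members. These counts are to be read against 2.32% of all genes tested and a median gene difference of 0.0122. Counting a call at any probe set of a gene, which held for 3.84% of all genes, 8 of the 12 lists had 1 or 2 called members and only 4 had none. The opioid system is the one through which morphine acts. By the brightest probe set none of 9 tested opioid peptide and receptor genes was called or reached an unadjusted p under 0.05, and their differences ran from -0.14 to 0.15 with a median of 0.00251. Penk, the enkephalin precursor, was at 12.27, 12.23 and 12.39 in 129P3/J and 12.31, 12.12 and 12.01 in SWR/J. Oprm1, the mu receptor that binds morphine, read 8.36, 7.87 and 7.66 against 8.07, 8.17 and 8.05 (difference -0.13, SE 0.15). Oprk1, the kappa receptor, read 8.73, 8.24 and 8.50 against 8.53, 8.60 and 8.75 (-0.14, SE 0.15). The values of the strains overlapped for all 3 genes. Pdyn (0.15, SE 0.10), Pomc (0.003, SE 0.14), Pnoc (-0.08, SE 0.19), Oprl1 (0.15, SE 0.09) and Ogfr (-0.02, SE 0.08) were likewise not called. Oprd1, the delta receptor gene, did not pass the signal threshold. The member called by a dimmer probe set was Ogfrl1, which resembles the opioid growth factor receptor. It was called at 1 of 3 probe sets (1.09, SE 0.27, adjusted p = 0.0145), while its brightest differed by 0.14 (SE 0.13). This call was lost without 129P3/J replicate 3 (adjusted p = 0.121) or SWR/J replicate 2 (adjusted p = 0.187).

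By the brightest probe set none of 25 effectors of opioid receptors was called (2 at an unadjusted p under 0.05, median -0.00307), nor any of 31 genes of dopamine signaling and medium spiny neurons (4, median 0.0616). Drd2, the dopamine D2 receptor, was at 10.33, 10.39 and 10.25 in 129P3/J and 10.29, 10.50 and 10.23 in SWR/J. Drd1 differed by 0.19 (SE 0.12) and Drd4 by 0.09 (SE 0.21), neither called. Rasd2, a striatal small G protein, was called at 1 of 2 probe sets, with 10.17, 10.34 and 10.11 against 11.22, 11.21 and 11.05 (-0.95, SE 0.21, adjusted p = 0.00458). Its brighter probe set gave -0.31 (SE 0.11, adjusted p = 0.17). By the brightest probe set there were no calls among 15 GABA receptor and enzyme genes (1 at an unadjusted p under 0.05), 19 glutamate receptors (1), 22 neuropeptides and their receptors (3), 31 potassium channels (6) or 36 synaptic vesicle and release genes (1). The same held for 53 respiratory chain genes (3), 25 glucocorticoid-responsive genes (0), 22 cholesterol synthesis genes (3) and 17 clock genes (0). Dimmer probe sets gave calls in 6 of these lists and in the effectors. Gnb1, a G protein beta subunit, was at least 1.93-fold lower in 129P3/J at 1 of 3 probe sets, and the brightest differed by 0.02 (SE 0.16). Foxp1, a transcription factor of medium spiny neurons, was at least 1.44-fold higher at 1 of 8. Grik2, a kainate receptor subunit, was at least 1.38-fold lower at 1 of 2, and Gria2, an AMPA receptor subunit, lower at 1 of 3 (-0.43, SE 0.10). Kcnh1, a voltage-gated potassium channel, was at least 2.33-fold higher at 1 of 2. Gabrg3 was described above. Syt11, a synaptotagmin, was lower at 2 of 5 (-0.51, SE 0.11, and -0.50, SE 0.14), Cplx2, a complexin, higher at 1 of 3 (0.55, SE 0.14) and Atp5g1, an ATP synthase subunit, lower at 1 of 2 (-0.86, SE 0.20). Leaving out 1 array ended the call of the second Syt11 value in all 6 cases (adjusted p = 0.0745 to 0.164). It ended that of Cplx2 without 129P3/J replicate 2 or 3 or SWR/J replicate 1 or 2 (0.0937 to 0.17), and that of Atp5g1 without 129P3/J replicate 2 or SWR/J replicate 1 or 3 (0.0683 to 0.0991). For Gria2 the adjusted p was 0.05 without 129P3/J replicate 3 and 0.0727 without SWR/J replicate 3.

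Of 19 monoamine, acetylcholine, cannabinoid and adenosine receptors, Hrh2, the histamine H2 receptor, was called, at 8.01, 7.70 and 7.92 against 7.59, 7.13 and 7.31 (0.53, SE 0.12, adjusted p = 0.00839). Of 24 immediate early genes, Arc, a synaptic plasticity gene, was lower in 129P3/J at 8.92, 8.92 and 8.97 against 9.73, 9.70 and 9.80 (-0.81, SE 0.20, adjusted p = 0.0166). Its saline means of 9.52 in C57BL/6J and 9.14 in DBA/2J lay between those of the 2 strains. Arc lost its call without any 1 array other than SWR/J replicate 2 (adjusted p = 0.0502 to 0.0783), and Hrh2 without 129P3/J replicate 1 or SWR/J replicate 2 (adjusted p = 0.0798 and 0.104).

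**Figure D4:**
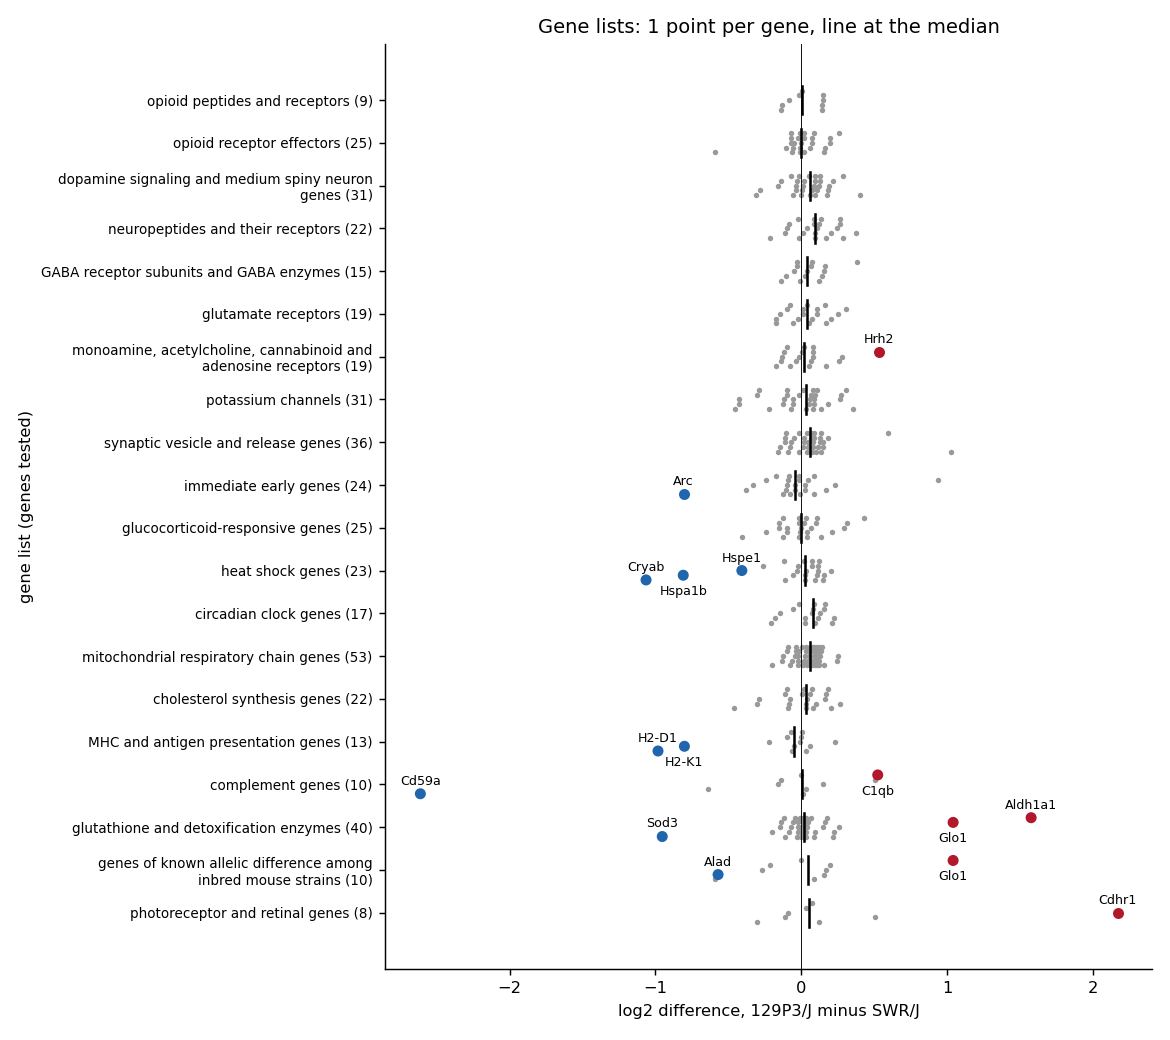
Log2 differences, 129P3/J minus SWR/J, of the genes in 20 lists. Each point is 1 gene by its brightest probe set, grey when not called, red or blue and named when called, and the black line is the median of the list; the number tested is given with the list. Medians lie close to zero in every list, and most points lie within 0.5 of zero.

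Heat shock genes encode chaperones that refold or hold damaged proteins, and heat shock factor induces many of them through short repeats of GAA and TTC in their promoters. Of 23 tested, 3 were lower in 129P3/J and none was higher (median of the list 0.0255). Hspa1b, an inducible Hsp70, was lower at all 3 probe sets. At that of largest difference it read 7.08, 7.01 and 7.71 in 129P3/J and 8.42, 8.64 and 8.44 in SWR/J (-1.24, SE 0.24, adjusted p = 0.00116), and at the others it differed by -1.07 (SE 0.21) and -0.81 (SE 0.17). C57BL/6J (7.39) and DBA/2J (7.68) were nearer to 129P3/J. Hspa1a, the nearly identical neighbouring copy, read 7.35, 7.13 and 7.58 against 7.28, 7.21 and 7.21 and was not called (0.12, SE 0.18), although probes that both copies match could not be assigned to 1 of them. Cryab, the small heat shock protein alpha-B-crystallin, was at 8.80, 9.23 and 9.56 against 9.85, 10.58 and 10.35 (-1.06, SE 0.19, adjusted p = 0.000424) and at -0.94 (SE 0.22) by its other probe set. Hspe1, the lid of the mitochondrial chaperonin, was at 10.08, 10.08 and 10.21 against 10.54, 10.61 and 10.44 (-0.41, SE 0.10, adjusted p = 0.0112) and at -0.49 (SE 0.12) by its other probe set. No pool of 129P3/J reached the lowest pool of SWR/J in any of these 3 genes. Hspd1, the chaperonin barrel that Hspe1 closes, was not called, at 10.59, 10.75 and 10.79 against 10.74, 10.84 and 10.63 (-0.03, SE 0.08). Nor was the inducible cochaperone Dnajb1, at 9.36, 9.68 and 9.67 against 9.48, 9.60 and 9.41 (0.07, SE 0.12). The second value of Hspe1 was no longer called without 129P3/J replicate 1 or 2 or SWR/J replicate 1 or 2 (adjusted p = 0.063 to 0.127).

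The promoters of Hspa1b and Hspe1 are shown because each holds the letters of a heat shock element, GAANNTTC, a pattern that reads the same on both strands, and because each gene has a partner with almost the same promoter that was not called. The windows are those of RefSeq (GRCm38.p6, the C57BL/6J genome, and neither strain compared here), from 250 bases before to 50 bases after the transcript start, written 5′ to 3′ with the element in capitals. That of Hspa1b lies at chr17:34959189-34959488 on the minus strand and that of Hspe1 at chr1:55087898-55088197 on the plus strand.
Hspa1b: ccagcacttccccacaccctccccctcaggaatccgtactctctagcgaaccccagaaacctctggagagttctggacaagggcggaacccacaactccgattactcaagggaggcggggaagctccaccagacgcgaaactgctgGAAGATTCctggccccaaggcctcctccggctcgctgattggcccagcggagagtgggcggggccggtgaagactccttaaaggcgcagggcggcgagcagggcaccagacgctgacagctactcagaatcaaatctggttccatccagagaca
Hspe1: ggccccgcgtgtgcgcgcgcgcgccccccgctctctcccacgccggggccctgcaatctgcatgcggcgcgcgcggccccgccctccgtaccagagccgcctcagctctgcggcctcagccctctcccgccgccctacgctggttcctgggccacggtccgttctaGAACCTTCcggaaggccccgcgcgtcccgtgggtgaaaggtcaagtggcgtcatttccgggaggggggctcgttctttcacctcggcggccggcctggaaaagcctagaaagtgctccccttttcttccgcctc
The element begins 104 bases before the start in Hspa1b and 84 bases before it in Hspe1. The window of Hspa1a matches that of Hspa1b at 296 of 300 positions and holds the same element at the same place. A window of Hspd1, which is transcribed from the opposite strand, shares 285 of its bases with that of Hspe1, and the same element stands 139 bases before the Hspd1 start. Among the 19 tested heat shock genes with a window, 10 held the pattern in at least 1 window, against 9.04% of all genes with a window. The pattern was thus not particular to Hspa1b and Hspe1. The other called gene of the list, Cryab, had no window, so its promoter was not read.

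Immune genes moved in both directions. Of 13 tested genes of antigen presentation, H2-D1 and H2-K1, classical class I heavy chains, were lower in 129P3/J (median of the list -0.046). H2-D1 was at 8.53, 8.61 and 8.38 against 9.21, 9.67 and 9.58 (-0.98, SE 0.17, adjusted p = 0.000317), and 3 of its 4 probe sets were called while the fourth gave -0.01 (SE 0.20). H2-K1 was at 8.44, 8.45 and 8.51 against 9.09, 9.46 and 9.26 (-0.80, SE 0.13, adjusted p = 0.000196) at 1 of 3. All of these probe sets carry the suffix that Affymetrix gives to probes shared with related transcripts, and class I genes are near-identical copies, so which member differed is uncertain. The complement list had 2 called genes among 10, Cd59a described above and C1qb, a chain of the C1q recognition molecule that microglia make. Over its 3 probe sets C1qb was higher in 129P3/J by 0.52 (SE 0.11), 0.53 (SE 0.15) and 0.67 (SE 0.18). The limma adjusted p was 0.00361, 0.0472 and 0.033, and the second is the brightest, by which the gene is counted in the lists. The first read 9.01, 9.05 and 9.13 against 8.52, 8.68 and 8.43. In the acute and chronic arrays C1qb was not called at any of the 3. Its partner chains were not called: C1qa read 8.80, 9.41 and 9.20 against 9.61, 9.88 and 9.83 (-0.64, SE 0.20, adjusted p = 0.103), and C1qc read 8.97, 9.13 and 9.25 against 8.16, 8.92 and 8.76 (0.50, SE 0.19, adjusted p = 0.246). The call of the third C1qb probe set was lost without 129P3/J replicate 2 or 3 or SWR/J replicate 1 or 2 (adjusted p = 0.111 to 0.257).

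Of the microglial markers, 3 of 13 were called by the brightest probe set, against 2.32% of all genes tested. Aif1, the protein known as Iba1, was lower at 6.66, 6.71 and 6.79 against 7.46, 7.23 and 7.83 (-0.79, SE 0.18, adjusted p = 0.00833). Fcer1g, an adaptor of Fc receptors, was lower at 7.65, 7.71 and 7.80 against 8.36, 7.99 and 8.46 (-0.55, SE 0.12, adjusted p = 0.00316). C1qb was higher. The call of Aif1 was lost without SWR/J replicate 3 (adjusted p = 0.118) and that of Ccdc153, below, without SWR/J replicate 2 (adjusted p = 0.0512). Without these 3 genes the mean level of the other 10 markers was 8.71 to 8.86 in 129P3/J and 8.89 to 9.00 in SWR/J. This was a small shift of -0.14, with ranges that came close but did not overlap. Ependymal markers were also low in 129P3/J, at 6.96 to 7.17 against 7.36 to 7.58 over 7 genes, with Ccdc153, a gene of ciliated cells, at least 1.73-fold lower. Over 4 red blood cell genes the levels were 7.66 to 7.70 against 7.86 to 8.22, with none called. Markers of other tissue overlapped between the strains. Cortical excitatory neuron genes ranged from 8.51 to 9.18 in 129P3/J and from 8.49 to 9.10 in SWR/J, and replicate 1 was the lowest pool in both. Choroid plexus genes, of which only 2 of 12 passed the threshold, ranged from 9.07 to 10.66 and from 9.61 to 9.72. Oligodendrocyte, astrocyte, interneuron, septal, endothelial and vessel wall means differed by at most 0.06 in either direction. The part of unequal tissue in the gene differences was not tested. Slco1a4, a transporter of the blood-brain barrier, was the called endothelial gene, higher in 129P3/J at 9.05, 9.40 and 9.19 against 8.45, 8.51 and 8.40 (0.76, SE 0.15, adjusted p = 0.00162).

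Enzymes of detoxification gave 3 calls among 40 genes (median 0.0159): Glo1 and Aldh1a1 higher and Sod3 lower in 129P3/J. Aldh1a1, a retinal dehydrogenase found in dopamine axons, was at 8.33, 8.71 and 8.80 against 7.04, 7.02 and 7.05 (1.58, SE 0.19, adjusted p = 6.91e-07). C57BL/6J (8.64) and DBA/2J (8.45) had the level of 129P3/J. Sod3, the extracellular superoxide dismutase, was at 6.35, 6.99 and 6.72 against 7.54, 7.81 and 7.57 (-0.95, SE 0.14, adjusted p = 2.27e-05). Of 10 tested genes listed for known allelic differences among inbred mice, Glo1 and Alad were called. Both are known to vary in copy number between strains. Alad, which makes the porphobilinogen of heme synthesis, was at 8.53, 8.75 and 8.66 against 9.17, 9.27 and 9.21 (-0.57, SE 0.12, adjusted p = 0.00443) at 1 of 2 probe sets. At this probe set the level was 8.11 in C57BL/6J and 9.09 in DBA/2J. The dimmer probe set of Alad differed by -0.10 (SE 0.16) and was not called.

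The same strain contrast was then read in the morphine arrays, which came from other mice. All 749 probe sets called under saline kept their sign in the acute arrays and in the chronic arrays. Among the probe sets not called under saline the sign was kept in 61.9% and 62.4%. After acute morphine 580 of the 749 (77.4%) were called with the same sign, where 2.96% of all probe sets were called, and after chronic morphine 579 (77.3%), where 3.38% were called. The size of the difference was close to that under saline, with median ratios of 0.925 and 0.93. In all 3 treatments 509 probe sets were called with the same sign, and 99 were called in neither morphine contrast. Arc was among those of smaller difference after morphine, at -0.70 (adjusted p = 0.0513) in the acute and -0.36 (adjusted p = 0.508) in the chronic arrays. All 3 probe sets of C1qb were also smaller and not called, at 0.159 to 0.328 in the acute and 0.045 to 0.375 in the chronic arrays. Neither probe set of Agpat1 was called after morphine, at -0.477 and -0.437 in the acute and -0.437 and -0.531 in the chronic arrays. Hspa1b stayed at -1.37 and -1.25, Glo1 at 0.83 and 1.06 and Cd59a at -2.59 and -2.50.

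A difference of the strain contrast between treatments was not detected: limma's F-test of the interaction called 0 of 25751 probe sets, with 362 (1.41%) at an unadjusted p under 0.05 and a lowest adjusted p of 1. That share is under the 0.05 expected without any interaction, so the test was conservative here. The absence of calls does not show that the contrasts were equal. Sox8, a transcription factor of the oligodendrocyte lineage, was among the 6 genes of smallest interaction p. It was at 5.22, 5.27 and 4.90 in 129P3/J against 7.34, 7.02 and 7.09 in SWR/J under saline, at least 1.42-fold lower. The saline difference as measured was -2.02 (SE 0.28, limma adjusted p = 1.18e-05). It was -0.71 after acute and -0.31 after chronic morphine, neither of them called, and the unadjusted p of limma's interaction test was 0.000475. Without Sox8 the mean of the other 8 tested precursor markers was 8.69 to 8.89 in 129P3/J and 8.79 to 8.81 in SWR/J.

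**Figure D5:**
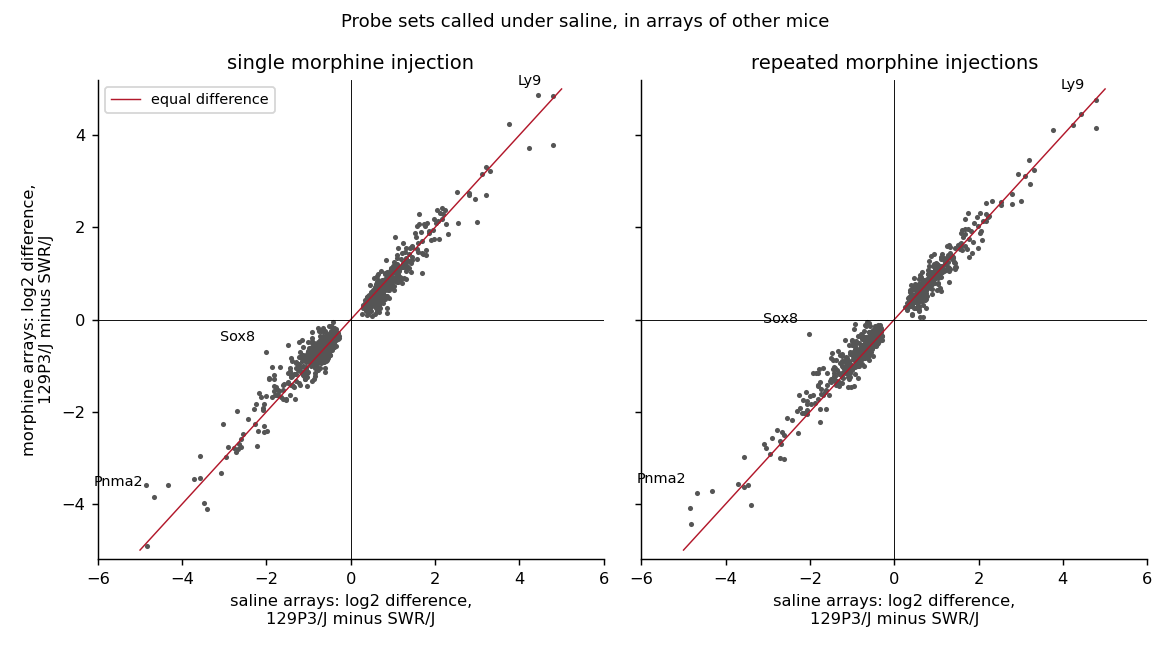
The 749 probe sets called under saline. The x axis is the log2 difference, 129P3/J minus SWR/J, in the saline arrays and the y axis the same difference in the arrays of mice given 1 dose (left) or repeated doses (right) of morphine; the red line marks equal differences. All points lie in the lower left and upper right of the plot, most of them near the line, and Sox8 lies nearer to zero after morphine than under saline.

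The saline levels of C57BL/6J and DBA/2J were set against the midpoint between the 2 strains. The side of the midpoint tells which strain was nearer, not how near. Both lay on the side of 129P3/J for 243 called probe sets (32.4%) and both on the side of SWR/J for 257 (34.3%). Over all tested probe sets these shares were 27.8% and 23.9%. In the remaining 117 (15.6%) and 132 (17.6%) the other 2 strains were split, against 25.2% and 23% of all tested probe sets. Aldh1a1, Pisd-ps3 and Hspa1b are examples of the first kind, Ly9, Dctn5 and Cryab of the second, and Alad, Snhg14 and Glo1, at 3 of its 4 probe sets, of the third.

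Some called genes were next to each other in the order of the tested genes along a chromosome. Genes that were not tested were skipped, so neighbours here can have others between them. Among 12675 tested genes with a RefSeq position, 484 were called, and 78 of these (16.1%) had a called gene as their direct neighbour, against 7.31% of all genes and 6.96% of genes not called. These 78 lay in 38 runs of which 17 had 1 direction. The longest runs held 3 genes. Paip1, which binds the poly(A)-binding protein, was at least 1.39-fold higher at 1 of 3 probe sets, beside 4833420G17Rik and Tmem267, which were at least 1.51-fold and 4.08-fold lower in 129P3/J. Tifa, an adaptor of NF-kappaB signaling (0.72, SE 0.13), and Ap1ar, a regulator of the AP-1 adaptor complex (0.71, SE 0.14, at 1 of 2 probe sets), were higher beside Fam241a, which was lower at both probe sets, by at least 1.26-fold at one and by a log2 difference of -0.52 (SE 0.14) at the other. Neither of these runs had a common direction.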

How the data were processed

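Each array carried total RNA pooled by the authors from the striata of 3 mice and hybridized as biotin-labelled cRNA to Affymetrix mouse arrays. The deposited table holds 1 linear intensity per probe set and array, for 45101 probe sets, of which 64 are controls, on 36 arrays. Its lowest value is 6.69, and 2 values of 1 probe set are missing. The authors describe several ways of summarizing and normalizing the arrays. The table does not name the one behind it, so its values were used as deposited, with dChip's perfect match and mismatch model as the likely source.

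The log2 of each intensity was taken with no pseudocount. The fit was limma 3.58.1 in R 4.3.3 with 12 group means over the 36 arrays (24 residual degrees of freedom, plus 4 from the empirical Bayes prior), and p-values of each contrast were adjusted by the Benjamini-Hochberg method over the 25751 kept probe sets and called under 0.05. A log2 difference is 129P3/J minus SWR/J, with its standard error from the fit. The 3 arrays of a group are labelled as biological replicates, so p-values measure the spread between pools. With 3 arrays a group, that number sets the precision. Gene symbols came from a probe annotation table, and neighbours and promoters from RefSeq (GRCm38.p6). A list gene is represented by its kept probe set of highest mean.

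Genes were named by rule: the 15 largest differences in each direction among called probe sets with 1 symbol and no overlap, up to 4 called members of each list (the 2 of largest difference where none was called), the opioid list and dopamine receptors, up to 6 genes with opposite calls, the members of the 5 longest neighbour runs and the 6 genes of smallest interaction p. Genes with all probe sets called in 1 direction, and Hspa1a, Hspd1, Dnajb1, Hsph1, C1qa, C1qc, H2-T3, Foxp1, Gabra2, Gabra3, Gnb1, Grik2, Kcnh1 and Slc1a2, were added after their values were seen and are among the 139 named genes. Gria2, Syt11, Cplx2 and Atp5g1 were also chosen after their values were seen. The comparison and the lists were chosen with earlier results of these data known. In a simulation of this comparison over 25751 probe sets with 50 changed at each size, 32% were recovered at a log2 difference of 0.5, 88% at 1 and 100% at 2 and 3. Tables and figures used Python 3.11.15, pandas 2.3.3, numpy 2.4.6 and matplotlib 3.10.9. Alternatives varied the filter, pseudocount, normalization, arrays in the fit, moderation, weights, threshold, replicate block and probe set choice, and left out each saline array.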

Additional observations from a re-analysis of the deposited data

How the results depend on the processing

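Under the alternatives tried, between 463 and 1075 probe sets were called between the saline groups. The lowest count, 463, came from a fit of only the 6 saline arrays, which has fewer residual degrees of freedom, and 435 of these probe sets were among the 749. With genes as the unit, 290 were called by the probe set of highest mean and 359 by the mean of all kept probe sets, from 12741 genes tested. Leaving out 1 saline array at a time gave 577 to 696 calls, 496 to 511 of them called in the acute and 488 to 552 in the chronic arrays with the same sign. No filter, log2(intensity + 32), quantile normalization, median centring and array weights gave 801, 760, 799, 660 and 978 calls, and the share that was higher in 129P3/J stayed between 44.6% and 49%. The interaction F-test called 0 probe sets in every alternative in which it was run. For the paired question, the label number as a fixed replicate block over the 12 saline arrays gave 620 calls. As a random replicate block within treatment (duplicateCorrelation, consensus correlation 0.245) it gave 1075, with 767 called in the acute and 797 in the chronic arrays. The lowest adjusted p of the interaction F-test was then 0.641, with 798 probe sets at an unadjusted p under 0.05. The labels do not say that a number marks a shared batch. Deviations from the group means of same-numbered saline arrays of the 2 strains correlated at 0.0812, 0.249 and 0.336, each array best with its own number, a hint from the data and not the design.

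Of 80 called named genes, each followed by its called probe set of largest difference, none changed direction in any of 20 alternatives and 60 kept their call in all of them, while 20 lost it in at least 1. Leaving out 1 array ended the call of 13 genes in at least 1 case: Ppp2r5e (adjusted p = 0.111 to 0.513 in 5 cases), Cep83os (0.0958 to 0.392 in 5), 1700086L19Rik (0.0545 and 0.0729), 2010315B03Rik (0.0518 and 0.0642) and Arc, C1qb, Psat1, Hspe1, Hrh2, Ogfrl1, Fto, Aif1 and Ccdc153, with the values given beside them in the report. The cause was not tested. Of 59 named genes not called, 8 were called in some alternative, such as C1qa (-0.65, adjusted p = 0.0151 with array weights), and sign changes of genes that were called on neither side occurred 32 times. Probe sets whose lower strain lies under the threshold give only a bound on the fold change.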
